A study of Mus musculus with 3 samples.

Results

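The Meis, Pbx, Pknox and Tgif genes were examined in mouse haematopoietic stem cells. They encode homeodomain transcription factors of the TALE class, named for a 3-amino-acid loop extension in the homeodomain. The 10 genes were chosen by name as Meis, Pbx, Pknox and Tgif genes with a probe set of their own, and they are 10 of the 19938 genes measured. They are Meis1, Meis2, Meis3, Pbx2, Pbx3, Pbx4, Pknox1, Pknox2, Tgif1 and Tgif2, each read by 1 probe set. The Irx and Mkx genes also belong to the TALE class and are described apart. Elsewhere, the TALE genes means these 10 and not the whole class. Cells came from bone marrow of wild-type C57Bl/6 mice aged 6 to 10 weeks. They were sorted for c-Kit, Sca-1 and CD150 and against lineage markers, CD48 and CD41, a gate known as KLS SLAM that enriches long-term stem cells. All 3 arrays are wild type, so there is no second group, and values are described array by array. The labels do not say whether the arrays came from separate animals, so the spread between them may be technical.

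TALE proteins act largely as partners of other transcription factors. PBX proteins bind DNA together with HOX proteins, and they pair with MEIS or PKNOX proteins, which affects whether PBX is held in the nucleus. MEIS1 is required for the maintenance of mouse haematopoietic stem cells, and with HOXA9 it drives leukaemia in mice. TGIF proteins are repressors that recruit corepressors to SMAD complexes in TGF-beta signalling. MEIS, PKNOX and TGIF proteins recognise a shared core, the hexamer TGACAG.

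Values are log2 of the authors' RMA intensities. A gene was called above the background range when it exceeded, on each array, the 95th percentile of 1231 chemosensory receptor genes (olfactory, vomeronasal and taste), which blood cells have little reason to use. The limits were 6.29, 5.98 and 5.77 log2 on arrays 1, 2 and 3. Each probe set has its own affinity, so a value below the limit does not show absence and the levels of different genes are not ranked. In bulk RNA, fewer cells expressing a gene and less RNA per cell cannot be told apart.

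The gate genes were read first as a check of the cells. Ly6a, the gene of Sca-1, was not among the genes measured, so Sca-1 could not be checked. Kit had 10.28, 9.92 and 9.85 log2 on arrays 1, 2 and 3, and Slamf1, the gene of CD150, had 6.41, 6.48 and 6.65, so both were above the range, Slamf1 by 0.11, 0.50 and 0.89 log2. Cd48 had 4.61, 5.62 and 6.14 and passed the limit on array 3 alone, while Itga2b, the gene of CD41, was above it by 0.22, 0.39 and 0.48 log2. Slamf1, which the gate selects, and Itga2b, which it excludes, were thus both above the range, each by less than 1 log2 on every array. Of the lymphoid markers 0 of 6 were above the range, of the erythroid markers 1 of 4 and of the endothelial and stromal markers 2 of 6, beside 36.8% of all genes. The erythroid and the endothelial and stromal shares, 25% and 33.3%, were near that of all genes. Of the megakaryocyte markers 4 of 5 were above it. The granulocyte markers had 8 of 10 above it, with list means of 8.45, 9.21 and 9.19 log2 on arrays 1, 2 and 3, in cells sorted as lineage-negative. Granulocyte transcripts were thus measured in all 3 arrays, and the sources of the TALE signal among the sorted cells were not tested.

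Of the 10 TALE genes, 6 passed the background limit on each of the 3 arrays and 4 passed it on none. Across all genes measured, 36.8% passed on each array and 42% on none. The 6 were Meis1, Meis3, Pbx2, Pbx4, Tgif1 and Tgif2, and the 4 were Meis2, Pbx3, Pknox1 and Pknox2. By subfamily this was 2 of 3 Meis genes, 2 of 3 Pbx genes, 0 of 2 Pknox genes and 2 of 2 Tgif genes. None of these 10 genes changed side between arrays, whereas 21.1% of all genes passed the limit on some arrays and not on others. Irx1 and Irx3, TALE genes outside the 10, each passed it on 1 array only. The count among the 10 was 6 on array 1, 6 on array 2 and 6 on array 3, beside 39.3%, 49.1% and 55.2% of all genes passing the limit of arrays 1, 2 and 3. The choice of background genes matters for the weaker signals: against 98 keratin-associated, defensin and pregnancy-specific glycoprotein genes, 3 of the 10 passed, namely Meis1, Pbx2 and Tgif1, beside 14.1% of all genes. With the 90th percentile as the limit the count stayed at 6 while 50.5% of all genes passed, so the distance between the TALE genes and all genes depends on the limit.

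**Figure D1:**
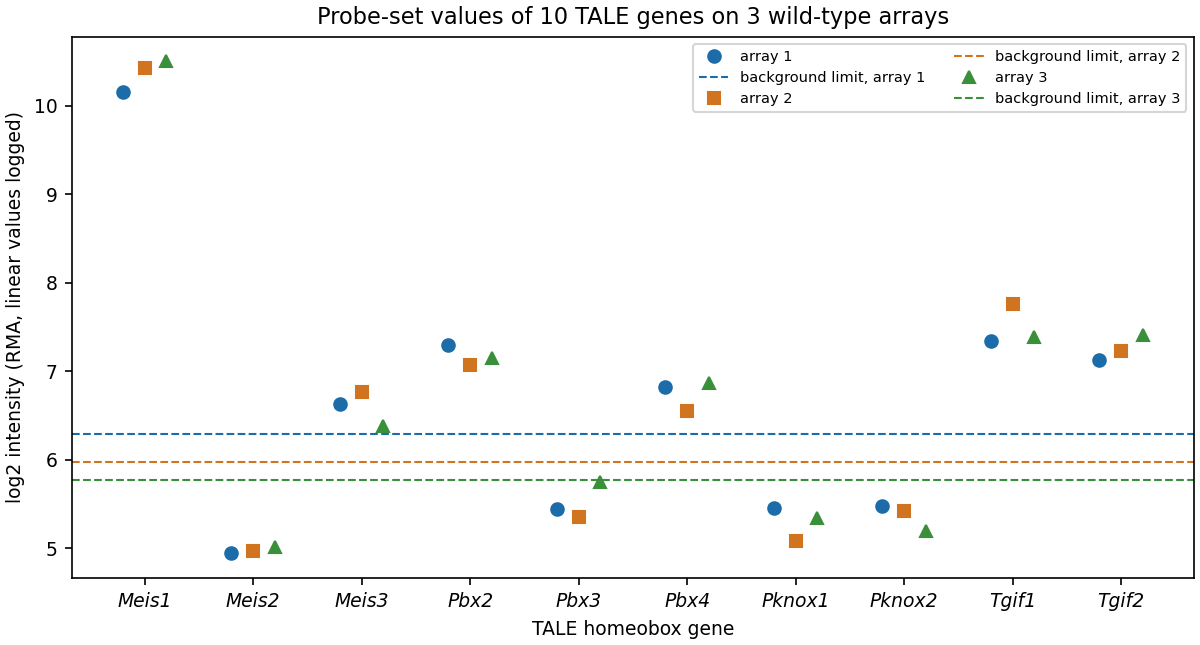
The y axis is log2 intensity and the x axis the 10 TALE genes, with 1 symbol per array and a dashed line at the background limit of each array. Meis1 lies between 10.16 and 10.50 on the 3 arrays, Meis2, Pbx3, Pknox1 and Pknox2 lie below the limit of each array, and the remaining 5 genes lie above it by 0.34 to 1.78 log2.

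Among the Meis genes, Meis1 and Meis2 lay on opposite sides of the limit. Meis1, the stem cell regulator, had 10.16, 10.43 and 10.50 log2 on arrays 1, 2 and 3, intensities of 1144, 1380 and 1449, with a mean of 10.36 ± 0.18 (SD, n = 3). It exceeded the limit by 3.86, 4.45 and 4.73 log2. Of the 1231 receptor genes, 0 reached its value on any array, so its signal was clear of background by a margin far wider than its spread between arrays.

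Meis2, a close homologue known for roles in neural crest, heart and limb development, had 4.94, 4.97 and 5.02 log2, with a mean of 4.98 ± 0.04 (SD, n = 3). These values lay 1.35, 1.00 and 0.75 below the limit, and 387, 302 and 225 receptor genes read higher on arrays 1, 2 and 3. The probe set of Meis2 thus read under the limit on each array, though over 68.6%, 75.5% and 81.7% of the receptor genes on arrays 1, 2 and 3. Meis3, a homologue studied in hindbrain patterning in frog and fish embryos, had 6.63, 6.77 and 6.38 log2, with a mean of 6.60 ± 0.20 (SD, n = 3). It passed the limit by 0.34, 0.79 and 0.62 log2, and 37, 10 and 15 receptor genes read higher. With the 99th percentile of the receptor genes as the limit, Meis3 was no longer above the range.

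The Pbx genes divided into a pair above the range and 1 below it. Pbx2, which is broadly expressed in the mouse and whose loss alone is tolerated, had 7.29, 7.07 and 7.15 log2, with a mean of 7.17 ± 0.11 (SD, n = 3). Its values exceeded the limit by 1.00, 1.10 and 1.38, with 7, 6 and 4 receptor genes above it. Pbx2 stayed above the range under each of the limits and background gene sets tried, though by only 0.0019 log2 on array 2 against the keratin-associated, defensin and pregnancy-specific glycoprotein genes.

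Pbx4, best known from the testis, had 6.83, 6.55 and 6.86 log2, with a mean of 6.75 ± 0.17 (SD, n = 3). Its margins were 0.53, 0.57 and 1.10 log2, and 24, 14 and 5 receptor genes read higher. Like Meis3, it fell short of the 99th percentile limit. Pbx3, a partner of MEIS1 and HOXA9 in leukaemia, had 5.45, 5.36 and 5.75 log2, with a mean of 5.52 ± 0.20 (SD, n = 3). It lay 0.85 and 0.62 log2 below the limit on arrays 1 and 2 and only 0.02 below it on array 3, where 66 receptor genes read higher, against 235 and 198 on arrays 1 and 2. Its call on array 3 therefore rested on a difference much smaller than its spread between arrays.

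Neither Pknox gene was above the range. Pknox1, also called Prep1, is a PBX partner needed for normal haematopoiesis in mice. It had 5.46, 5.08 and 5.35 log2, with a mean of 5.29 ± 0.19 (SD, n = 3), and lay 0.84, 0.89 and 0.42 below the limit. Pknox2, or Prep2, its more tissue-restricted homologue, had 5.48, 5.42 and 5.19 log2, with a mean of 5.37 ± 0.15 (SD, n = 3). It lay 0.81, 0.55 and 0.57 below the limit. Receptor genes that read higher numbered 229, 269 and 132 for Pknox1 and 222, 172 and 175 for Pknox2. Both genes read like the upper part of the receptor genes, and neither had a value over the limit on any array.

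Both Tgif genes were above the range. Tgif1, a corepressor of SMAD proteins and of retinoid signalling, had 7.34, 7.75 and 7.39 log2, with a mean of 7.50 ± 0.23 (SD, n = 3). It exceeded the limit by 1.05, 1.78 and 1.62, with 7, 2 and 2 receptor genes above it. Its value on array 2 stood apart from the other two, which differed by less than 0.05. Tgif2, a related repressor of SMAD-dependent transcription, had 7.12, 7.23 and 7.41 log2, with a mean of 7.26 ± 0.15 (SD, n = 3). Its margins were 0.83, 1.25 and 1.65 log2, with 13, 4 and 2 receptor genes above it. Tgif2 passed the 99th percentile limit by only 0.0033 log2 on array 1, where it fell 0.09 log2 short of the limit set by the keratin-associated, defensin and pregnancy-specific glycoprotein genes.

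The TALE genes differed little between arrays. Their SD over the 3 arrays ran from 0.04 for Meis2 to 0.23 for Tgif1, with a median of 0.18 log2 beside 0.22 for all genes. The highest array exceeded the lowest by 1.05-fold for Meis2 and by 1.33-fold for Tgif1, the ends of the range over the 10 genes. Of the genes within 0.5 log2 of its level, 53.4% had a smaller SD than Pbx3, and for Pknox1 this was 49.5%. For the other TALE genes it ran from 2.7% for Meis2 to 42.7% for Meis3. All 10 had an SD below the value that limma's mean-variance trend gives at their level, as did 56.2% of all genes. In an F test of each gene's variance against that trend, 0 of 10 TALE genes varied (Benjamini-Hochberg adjusted p of 0.997 to 0.998). Of the 10, 0 had an unadjusted p under 0.05. Of all 19938 genes, 0% passed after adjustment and 5.1% had an unadjusted p under 0.05. With 2 residual degrees of freedom, 4.34 for the trend and adjustment over 19938 genes, the test can find only very large departures. A p that misses the threshold does not show equal levels.

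**Figure D2:**
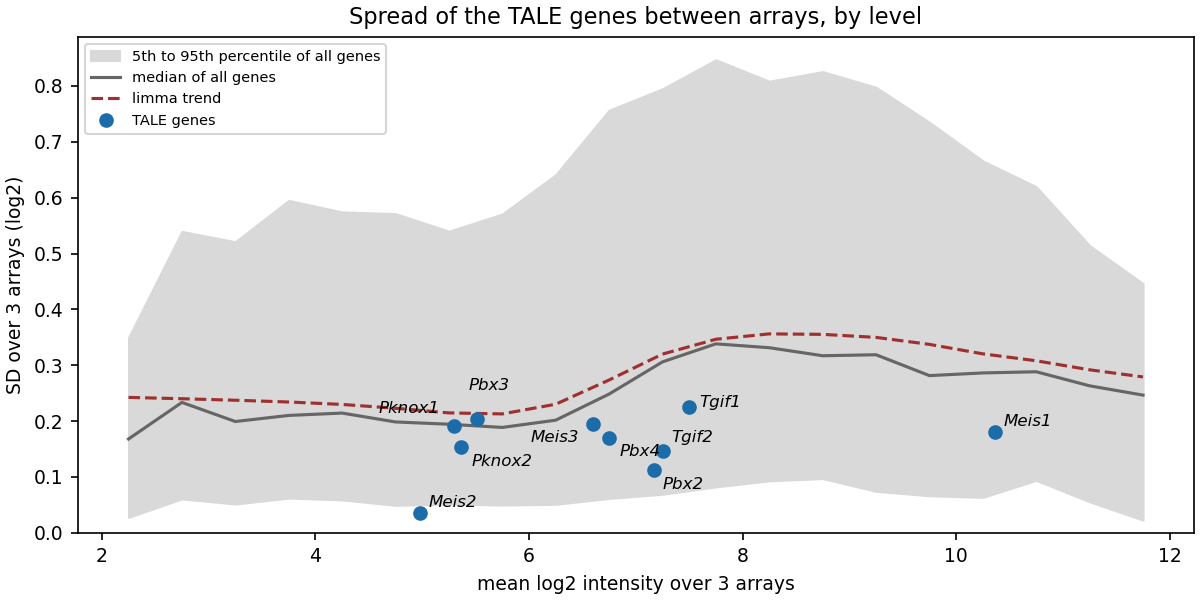
The x axis is the mean log2 intensity over the 3 arrays and the y axis the SD over them. The grey band holds the 5th to 95th percentile of all genes in steps of 0.5 log2, the solid line their median and the dashed line the limma trend. The 10 TALE genes lie under the dashed line, with SDs from 0.04 to 0.23.

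Small differences between arrays followed no single order across the family. The highest value was on array 1 for Pbx2, Pknox1 and Pknox2, on array 2 for Meis3 and Tgif1, and on array 3 for Meis1, Meis2, Pbx3, Pbx4 and Tgif2. Meis1 deviated from its mean by -0.20, 0.07 and 0.14 log2 on arrays 1, 2 and 3. The 146 genes within 0.5 log2 of its level had median deviations of -0.20, 0.02 and 0.18, so the order of Meis1 was also that of genes of like level. Array 1, where Meis1 was lowest, also had the lowest mean of the granulocyte markers, and the part of these markers in the order of Meis1 was not tested.

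Tgif1 deviated by -0.15, 0.26 and -0.11 log2, while the 2626 genes of like level had median deviations of -0.06, -0.04 and 0.10. Its high value on array 2 was therefore not shared by the median gene of its level. Pbx3 deviated by -0.07, -0.16 and 0.23 log2, against median deviations of 0.00, 0.04 and -0.05 for 5864 genes of like level. Neither gene passed the F test of variance against the limma trend, with unadjusted p of 0.667 for Tgif1 and 0.465 for Pbx3 (adjusted p = 0.997 for each).

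**Figure D3:**
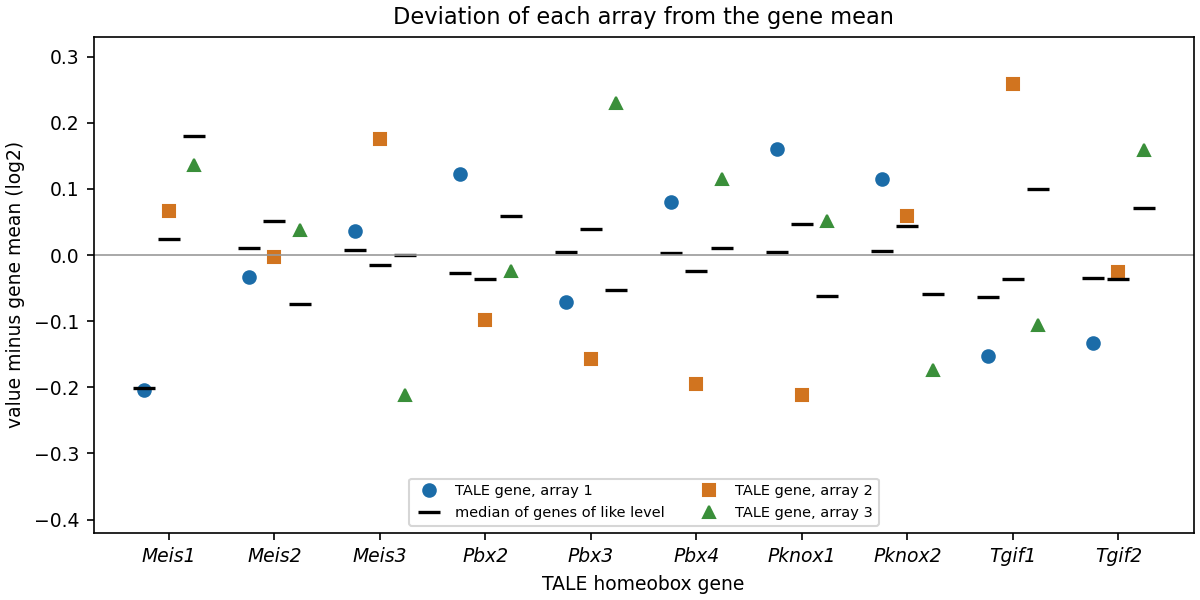
The y axis is the value on an array minus the gene's mean over the 3 arrays, in log2, for each TALE gene on the x axis. Coloured symbols are the TALE genes by array, and black dashes are the median deviation of all genes within 0.5 log2 of that gene's level. The symbols of Meis1 (-0.20, 0.07 and 0.14) lie near its dashes, whereas Tgif1 on array 2 (0.26) lies well over its own (-0.04).

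The remaining TALE genes with a measurement were mostly not above the range. Of the Iroquois genes Irx1 to Irx6, which pattern many embryonic organs, and the tendon regulator Mkx, 1 of 7 was above the range, beside 60% of the 10 genes above and 36.8% of all genes. That gene was Irx2 at 6.79, 6.95 and 6.61 log2, a mean of 6.78 ± 0.17 (SD, n = 3). Irx1 averaged 5.90 ± 0.08 and Irx3 5.91 ± 0.24 log2, each over the limit on 1 array. Irx4 at 5.55 ± 0.29, Irx5 at 5.36 ± 0.19, Irx6 at 5.25 ± 0.22 and Mkx at 4.60 ± 0.06 log2 were under it on every array. With the 90th percentile limit 3 of the 7 passed, beside 50.5% of all genes. The median of the gene means was 5.55 log2 for these 7 genes, 6.67 for the 10 TALE genes and 5.96 for all genes, which describes array signal only, since probe affinities differ.

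The HOX proteins that pair with PBX and MEIS were represented by 16 measured genes of the Hoxa and Hoxb clusters, of which 10 were above the range, beside 36.8% of all genes, with a median of the gene means of 6.67 log2. The count was 5 with the 99th percentile limit, where 17.4% of all genes passed. Against the keratin-associated, defensin and pregnancy-specific glycoprotein genes it was 4, where 14.1% of all genes passed. The 6 not above the range were Hoxa2, Hoxa3, Hoxb2, Hoxb5, Hoxb6 and Hoxb9, of which Hoxa3 and Hoxb5 missed the limit on array 1 alone. Hoxa9, the partner of Meis1 in leukaemia, was at 7.37 ± 0.19 log2 (SD, n = 3) and was named after its value was seen. Among 53 homeobox genes outside the TALE and Hox groups, 12 were above the range, or 22.6%, with a median of the gene means of 5.77 log2. Msx1, Msx2, Dlx1 and Dlx2, regulators of skull, tooth and forebrain development, were among those not above it, at 5.99 ± 0.32, 5.16 ± 0.11, 5.58 ± 0.11 and 5.63 ± 0.16 log2. Hhex, a homeobox gene active in blood and endothelial precursors and named after its value was seen, was at 9.35 ± 0.26 log2. The homeobox count was 19 of 53 without array 1, where the share of all genes was 46.9%. It was 21 with the 90th percentile limit, beside 50.5% of all genes, and 5 with the 99th, beside 17.4%.

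Genes reported to respond to MEIS1 in blood cells were above the range in 6 of 8 cases, beside 36.8% of all genes, with a median of the gene means of 6.91 log2. The count was 3 of 8 with the 99th percentile limit, beside 17.4% of all genes. Against the keratin-associated, defensin and pregnancy-specific glycoprotein genes it was also 3 of 8, beside 14.1% of all genes. Hif1a, a hypoxia-inducible factor subunit, had 7.22, 7.52 and 7.93 log2, with a mean of 7.56 ± 0.35 (SD, n = 3). The receptor kinase gene Flt3 averaged 7.91 ± 0.22 log2, and Sytl1, a vesicle trafficking gene, averaged 6.59 ± 0.21. The cyclin genes Ccnd1 and Ccnd3 averaged 6.49 ± 0.15 and 7.72 ± 0.25 log2, and Pf4, platelet factor 4, averaged 7.23 ± 0.45. Epas1, another hypoxia-inducible subunit gene, at 6.05 ± 0.10 and the pseudokinase gene Trib2 at 6.53 ± 0.27 log2 missed the limit on array 1 alone. These are levels in unperturbed cells and carry no measurement of regulation by MEIS1.

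The partners of TGIF1 were above the range in 8 of 10 cases, beside 36.8% of all genes, with a median of the gene means of 7.47 log2. Among the SMAD genes, which carry the TGF-beta signal, Smad2 averaged 7.91 ± 0.36, Smad3 7.65 ± 0.07 and Smad4 8.17 ± 0.16 log2 (SD, n = 3). The corepressor genes Ctbp1, Ctbp2, Sin3a and Ski averaged 7.28 ± 0.02, 6.53 ± 0.06, 7.98 ± 0.20 and 6.91 ± 0.05 log2, and the histone deacetylase gene Hdac1 averaged 8.91 ± 0.29. The retinoid receptor gene Rxra at 6.06 ± 0.09 and the SMAD repressor gene Skil at 6.10 ± 0.28 log2 did not pass on every array. With the 99th percentile limit 6 of the 10 partners passed, beside 17.4% of all genes.

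**Figure D4:**
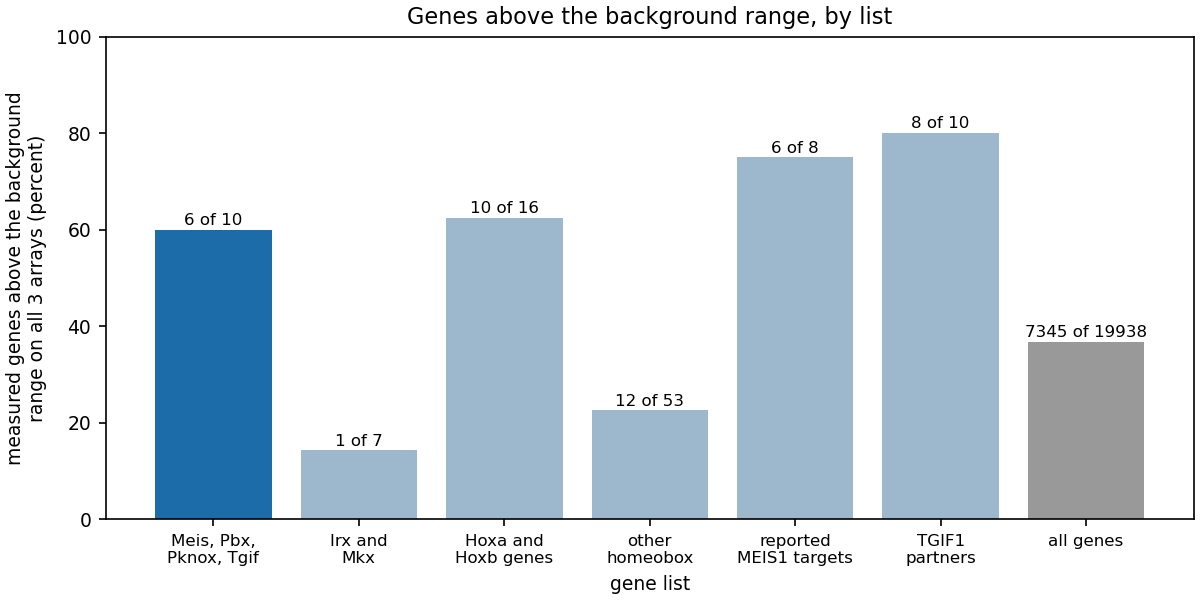
Bars give the percentage of measured genes above the background range on all 3 arrays, with the counts printed over them, for the 10 TALE genes, 5 lists of related genes and all genes. The 10 Meis, Pbx, Pknox and Tgif genes stand at 60%, and the Irx and Mkx genes, which are TALE genes too, at 14.3%. Other homeobox genes stand at 22.6% and all genes at 36.8%. The 60% is therefore not the share of the whole TALE class.

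Sequence around the annotated transcript starts was available for 7 of the 10 TALE genes, in 11 windows of 300 bases from RefSeq on GRCm38.p6, 5 of which belong to Tgif1. Pbx3, Pknox1 and Pknox2 had no window, so Meis2 was the only gene below the background range with one. The ratio of observed to expected CpG was above the median of all 32851 windows, 0.384, in 10 of the 11. It was 0.589 for Meis1, which lay above the background range, and 0.666 for Meis2, which lay below it, so this ratio was above the median in both. The hexamer TGACAG, sought on both strands, was in 2 of the 11 windows, beside 19.2% of all windows, which is no excess. Both belong to Tgif1, whose own protein family binds this hexamer. The stretches around them are printed because they show where the shared TALE core lies in a TALE gene measured here, with the hexamer in capitals. A match of these letters is not evidence of binding. The first lies at chr17:70851188-70851217 and the second at chr17:70846728-70846757, both on the minus strand, with the hexamer starting 5 and 38 bases after the annotated start of their transcripts.
Tgif1 start A: gctctctcactcTGACAGcgccgaggtgcg
Tgif1 start B: tttaggttcatatctaatTGACAGtcttaa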

How the data were processed

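Total RNA was isolated on columns, amplified with a NuGen kit and labelled with biotin for 3 wild-type arrays, per the labels' protocols. Per the submitters' processing notes, the authors used RMA and Affymetrix Expression Console. Software versions and the genome build were not given in the sources used here. The deposited values are intensities from 2.82 to 18384. They were taken to be on a linear scale because of that range, although RMA usually gives log2 values. RMA removes most array-wide differences in brightness. Their log2 was used without a pseudocount. Median intensities were 60.4, 58.0 and 56.7. Of 35554 probe sets, the 21789 with 1 gene in the platform annotation gave 19938 genes, with probe sets of a gene averaged. No 2 arrays were duplicates, with median differences of 0.248 to 0.259 log2. Variation was tested with a one-sided F test against the robust variance trend of limma 3.58.1 in R 4.3.3 (Benjamini-Hochberg threshold 0.05). The script was tested on simulated data in which the planted SDs were many times the trend. That test did not examine departures as small as those of the TALE genes. Protein sequences were not used here, so the planned identity between homeodomains was not computed. All 10 TALE genes are named; of lists over 10 genes, the rarer side of the limit where it held 8 or fewer, otherwise the first 4. The members and lists were chosen with earlier results of these data known.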

Additional observations from a re-analysis of the deposited data

How the results depend on the processing

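The count of TALE genes above the background range was 6 when any 1 array was left out (6 to 6, beside 37% to 46.9% of all genes), with the 90th percentile limit (50.5% of all genes), with 2 of 3 arrays required (48.9%) and with the brightest probe set of each gene (37.3%). Leaving out an array or requiring 2 of 3 could not change the count, since each TALE gene passed on every array or on none. The brightest probe set left the TALE values as they were and moved only the limit. The count was 4 with the 99th percentile limit, beside 17.4% of all genes, without Meis3 and Pbx4. It was 3 with 98 keratin-associated, defensin and pregnancy-specific glycoprotein genes as background, whose limits were 7.22, 7.07 and 7.07 log2 on arrays 1, 2 and 3; Tgif2 was then lost as well. The limits are higher there, and why these genes read higher was not tested. The 60 recomputed levels of single TALE genes, leave-one-out levels included, moved by at most 0.13 log2 and by less than 1 SD. Most of these had to stay within 1 SD. Centring keeps the mean over the 3 arrays, and the brightest probe set is the only one each TALE gene has. Dropping 1 of 3 values always shifts a mean by less than 1 SD. Only renormalising the arrays by quantiles was free to differ, and there Pbx3, which moved most, went from 5.517 to 5.508 log2. The F test of variance against the limma trend called 0 TALE genes as varying under each of 8 alternatives. The smallest unadjusted p in that test was 0.266, for Pbx3 without array 1. No paired analysis was possible because all samples belong to 1 group. The leave-one-out levels and the alternatives for the other lists were chosen after seeing the data.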
